A study of Mus musculus with 90 samples.

Results

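Uhrf1 binding was compared genome-wide between mouse embryonic stem cells (ESCs) with and without their DNA methylation machinery, from the Uhrf1 peak lists of 2 WT and 2 TKOL libraries. The members were these 4 of the 18 single-replicate peak lists of the series, chosen by their labels. They held 30134 and 49156 peaks in WT replicates 1 and 2, and 17444 and 14815 peaks in TKOL replicates 1 and 2. Peaks that overlapped by at least 1 bp were merged into 86311 loci. Of these, 9627 loci were in both WT lists and neither TKOL list (WT-only, 11.2% of all loci), 2744 were in both TKOL lists and neither WT list (TKOL-only, 3.18%), and 1603 were in all 4 lists (1.86%). A further 67905 loci were in 1 list.

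WT cells were ESCs labelled with the strain V65 and carried a FLAG tag on Uhrf1. TKOL cells were J1 ESCs with a knockout of Dnmt3a and of Dnmt3b, an shRNA against Dnmt1 and the same tag. Strain, tagged clone and genotype therefore differed together, and their effects cannot be told apart. Both lines were grown on a feeder layer of mouse embryonic fibroblasts. Uhrf1 was pulled down through the tag and sequencing adapters were added on the chromatin (ChIPmentation). The lists gave for each peak a fold enrichment over background. Input libraries for Uhrf1 were sequenced in both lines, but the lists do not say whether they served as that background. Peak lists of H3K9me3 and Trim28 in both lines, and of Uhrf1 in the line DKO0 (TKOL cells after removal of the shRNA), were used only where they touch these loci. The lists do not give the read depth of a library. Nothing in the labels says whether replicates were separate cultures, so the spread between them may be technical.

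Uhrf1 is the protein that brings the maintenance methyltransferase Dnmt1 to newly replicated DNA. It reads CpG dyads methylated on a single strand through its SRA domain, and histone H3 methylated on lysine 9 through its tandem Tudor domain. H3K9me3 is the mark of constitutive heterochromatin, and Trim28 is the corepressor that KRAB zinc finger proteins bring to retrotransposons such as IAP elements, where H3K9 methylation follows.

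The sequence of the peaks shows the contrast between the classes. For the WT-only and the TKOL-only class, the locus of 150 to 300 bp that ranked highest by the lower fold enrichment of its 2 lists, with under 50% repeated words and outside UTRs, is given, on the plus strand of mm9, with CpGs in capitals. The WT-only locus chr11:81111911-81112210 lies in an intron of Accn1 and holds 9 CpGs in 300 bp, several of them in a run that alternates C and G. The TKOL-only locus chr5:8096810-8096993 lies in an intron of Adam22 and consists of a tandem repeat with 0 CpGs.

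WT-only, Accn1 intron: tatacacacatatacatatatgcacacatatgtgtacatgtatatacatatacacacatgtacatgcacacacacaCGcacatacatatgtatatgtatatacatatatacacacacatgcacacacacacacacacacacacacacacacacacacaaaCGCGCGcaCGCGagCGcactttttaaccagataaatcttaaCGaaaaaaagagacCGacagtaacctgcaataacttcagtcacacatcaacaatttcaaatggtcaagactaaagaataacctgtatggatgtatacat

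TKOL-only, Adam22 intron: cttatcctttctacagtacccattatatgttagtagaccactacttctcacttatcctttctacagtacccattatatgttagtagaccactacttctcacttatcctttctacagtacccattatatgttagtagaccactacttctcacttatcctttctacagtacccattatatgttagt

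These loci had fold enrichments of 4.44 and 5.05 in WT (Accn1) and of 5.47 and 9.39 in TKOL (Adam22). Since each contains a tandem repeat, the first locus of each of the 3 classes with under 10% of repeated words and at least 80% distinct words of 6 bp is shown as well, a choice made after the values were seen. They are a WT-only locus in an intron of Elk3 (chr10:92752535-92752731, 4 CpGs in 197 bp), a TKOL-only locus between genes on chromosome 6 (chr6:11689878-11690119, 0 CpGs in 242 bp) and a locus of all 4 lists in an intron of Myo18b (chr5:113147728-113148027, 4 CpGs in 300 bp). In the ranking of their classes these loci stood at 335 (Elk3), 13 (chromosome 6) and 354 (Myo18b). The Elk3 and chromosome 6 loci still hold short runs of CA or TG. None of these 3 loci overlapped an H3K9me3 peak of either line.

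WT-only, Elk3 intron: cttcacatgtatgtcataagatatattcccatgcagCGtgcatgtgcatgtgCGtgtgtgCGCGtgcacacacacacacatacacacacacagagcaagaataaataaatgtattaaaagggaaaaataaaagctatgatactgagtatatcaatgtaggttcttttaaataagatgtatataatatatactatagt

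TKOL-only, between genes: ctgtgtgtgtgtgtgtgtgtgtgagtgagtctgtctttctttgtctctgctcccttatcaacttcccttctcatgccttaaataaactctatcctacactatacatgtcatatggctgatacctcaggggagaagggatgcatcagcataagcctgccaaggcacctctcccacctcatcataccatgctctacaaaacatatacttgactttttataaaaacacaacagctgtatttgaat

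All 4 lists, Myo18b intron: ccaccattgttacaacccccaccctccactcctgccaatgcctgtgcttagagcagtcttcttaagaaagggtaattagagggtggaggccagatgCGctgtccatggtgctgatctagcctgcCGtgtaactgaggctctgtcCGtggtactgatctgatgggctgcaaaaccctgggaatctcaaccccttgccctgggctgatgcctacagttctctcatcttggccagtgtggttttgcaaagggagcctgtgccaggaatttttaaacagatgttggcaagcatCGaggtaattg

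Uhrf1 peaks were richer in CpGs in WT than in TKOL. In the 300 bp around the centre of each peak, WT replicate 1 had on average 2.47 CpGs per 100 bp and WT replicate 2 had 2.55, against 1.04 in TKOL replicate 1 and 1.40 in TKOL replicate 2. Tiles of 300 bp across the genome had 0.83, so that both TKOL lists lay nearer to the genome than to WT. The lines did not overlap, with means of 2.51 ± 0.05 (SD, n = 2) in WT and 1.22 ± 0.25 (SD, n = 2) in TKOL. The difference of 1.29 CpGs per 100 bp gave p = 0.33 in an exact two-sided permutation test over the 4 lists, the smallest p that 2 against 2 can give, and 0.429 after Benjamini-Hochberg adjustment over the 9 differences tested. No difference between the lines could therefore pass a threshold of 0.05 in this design, and the values below are read against the spread between replicates. The difference in CpGs was present among peaks with at least 50% repeated sequence (1.51) and among the others (1.21), and was larger when each list was limited to its 14815 peaks of lowest p-value (1.81).

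**Figure D1:**
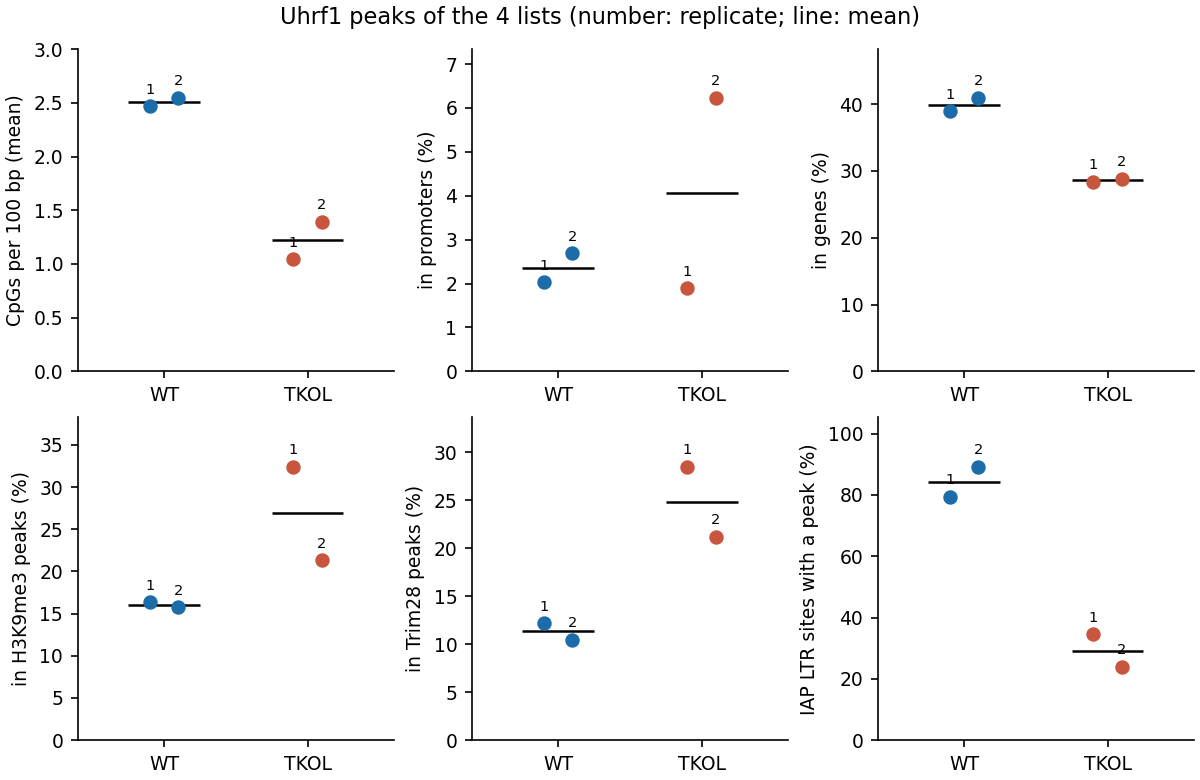
Values of the 4 Uhrf1 lists, as the mean CpGs per 100 bp around the peak centre, the percent of peaks in promoters, in genes outside promoters, and in H3K9me3 or Trim28 peaks of the same line, and the percent of 2383 IAP LTR sites with a Uhrf1 peak. Points are single replicates and lines are means of 2. WT and TKOL do not overlap in CpG density (2.47 and 2.55 against 1.04 and 1.40), whereas the promoter shares do, since TKOL replicate 2 stands at 6.23%.

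The classes of loci separated further. WT-only loci had a median of 3.00 CpGs per 100 bp (quartiles 2.00 and 4.00) and loci in all 4 lists had 3.33, whereas TKOL-only loci had 0.33, below the 0.67 of genome tiles. The position of TKOL-only loci below the genome depended on TKOL replicate 1: without that list their mean rose from 0.52 to 1.06, past the tile mean of 0.83. Without TKOL replicate 2 the mean was 0.61, still below the tiles. No CpG at all was found around 32.6% of TKOL-only loci and 1.57% of WT-only loci, against 19.1% of tiles. A window with at least 50% GC and an observed over expected CpG ratio of at least 0.6, the composition of a CpG island, surrounded 18.5% of WT-only loci (95% Wilson interval 17.7% to 19.2%), 22.7% of loci in all 4 lists (20.7% to 24.8%) and 0.364% of TKOL-only loci (0.198% to 0.670%). In tiles the share was 0.837%. Mean GC content was 48.0% in WT-only loci, 45.5% in loci of all 4 lists, 42.7% in TKOL-only loci and 41.8% in tiles. The intervals cover the count of loci only.

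**Figure D2:**
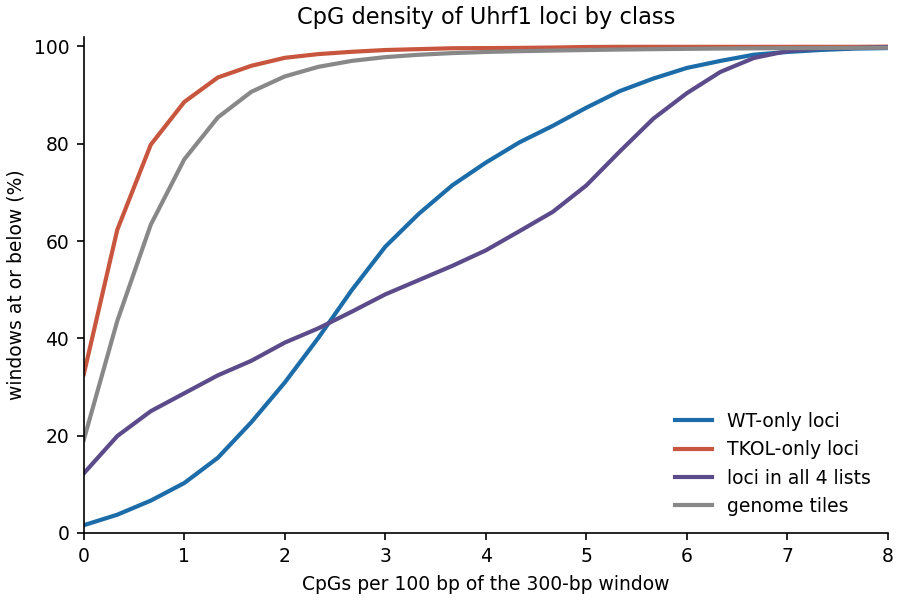
Cumulative share of 300-bp windows (%) at or below each CpG density (CpGs per 100 bp), for the 3 classes of Uhrf1 loci and for tiles of the genome. The curve of TKOL-only loci lies above that of the tiles throughout the low densities, with 88.6% of windows at or below 1 CpG per 100 bp, against 76.8% of tiles and 10.2% of WT-only loci.

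Sorted by CpG density, the class of a locus changed from mostly TKOL-only to mostly WT-only. There were 16601 loci in both lists of at least 1 line. Among those outside repeated sequence with under 0.5 CpGs per 100 bp (2158 loci), 62.7% were TKOL-only and 14.6% WT-only. Between 1 and 2 CpGs per 100 bp (1727 loci) the shares were 20.4% and 69.1%. Between 3 and 4 (1184 loci) they were 1.27% and 94.4%, and 1.69% were in all 4 lists. In repeated sequence the same change occurred, but more CpG-rich loci were kept in TKOL: with 5 or more CpGs per 100 bp (2464 loci), 53.2% were WT-only, 21.6% were in all 4 lists and 0.0406% (1 locus) was TKOL-only.

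**Figure D3:**
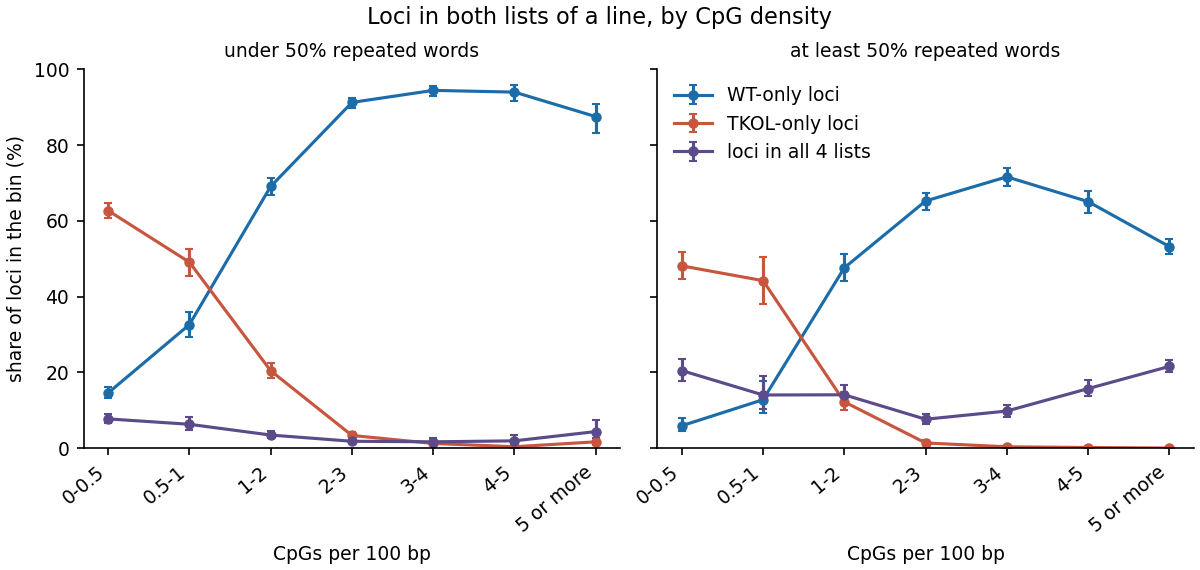
Share of loci (%) that were WT-only, TKOL-only or in all 4 lists, among loci in both lists of at least 1 line, by CpGs per 100 bp, for loci with under 50% (left) and at least 50% (right) repeated words. Bars are 95% Wilson intervals. TKOL-only loci fall from 62.7% to 1.27% and WT-only loci rise from 14.6% to 94.4% between the first bin and the bin of 3 to 4 CpGs per 100 bp on the left.

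The number of loci in each class depended on the size of the lists. With 14815 peaks in each list there were 3152 WT-only, 2908 TKOL-only and 1296 shared loci, so that the excess of WT-only loci fell from 3.51 to 1.08 times the TKOL-only loci. Their CpG densities were then 3.64, 0.55 and 3.37 per 100 bp. Peaks whose -log10 q-value reached 3 gave 1018, 711 and 504 loci, with 4.26, 0.67 and 2.64 CpGs per 100 bp, so that loci in all 4 lists then lay below WT-only loci. Of the peaks of WT replicate 1, 45.3% overlapped a peak of WT replicate 2, and 27.1% of the peaks of WT replicate 2 overlapped one of WT replicate 1. In TKOL these shares were 28.8% and 34.3%. A peak of one line was found in a list of the other in 7.39% to 10.2% of WT peaks and in 17.6% to 24.6% of TKOL peaks. Replicates of a line thus shared more peaks with each other than with either list of the other line, although more than 50% of the peaks of every list were missing from its replicate. Leaving out 1 list, so that a single list stands for its line, gave 43777 and 26116 WT-only loci without WT replicates 1 and 2, and 10751 and 13075 TKOL-only loci without TKOL replicates 1 and 2.

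Genic positions took a larger share of peaks in WT. Peaks in protein-coding genes but outside promoters made up 38.9% and 40.9% of the WT lists and 28.4% and 28.8% of the TKOL lists, a difference of 11.3 percentage points (p = 0.33, exact permutation test). Tiles stood between the lines at 36.2%. Intergenic peaks made up 59.1% and 56.4% in WT and 69.7% and 65.0% in TKOL, against 60.3% of tiles. Both differences changed sign among peaks whose -log10 q-value reached 3 (-1.08 points for genic and 2.51 for intergenic peaks). By class, 37.2% of WT-only loci, 30.1% of TKOL-only loci and 19.3% of loci in all 4 lists were genic. Outside repeated sequence, 51.6% of WT-only loci were genic and 6.91% had their centre in an exon, above the tiles of that kind (37.9% and 3.38%), while TKOL-only loci stood below them (30.6% and 1.39%).

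Promoters, taken as 1 kb to either side of the start of a protein-coding transcript, held few Uhrf1 peaks. The share was 2.03% and 2.69% of peaks in WT and 1.90% and 6.23% in TKOL, with overlapping lines (p = 1.00, exact permutation test), and 3.51% of tiles lay there. The excess in TKOL replicate 2 was not seen in the other 3 lists. In that list 0.590% of 22380 gene starts lay inside a peak, above the 0.109% of the genome that its peaks covered, whereas WT replicates 1 and 2 and TKOL replicate 1 had 0.0849%, 0.255% and 0.0581% of starts in a peak, each below its share of the genome (0.288%, 0.537% and 0.143%). The promoter peaks of TKOL replicate 2 had 4.04 CpGs per 100 bp and 37.7% had the composition of a CpG island, against 0.96 and 2.11% in TKOL replicate 1 and 7.84% and 9.02% with that composition in WT. Without TKOL replicate 2 the difference in promoter share was 0.46 points in favour of WT, where it had been -1.71. Among classes, 1.96% of WT-only loci and 3.13% of TKOL-only loci were in promoters, a difference of -1.17 points (95% Newcombe interval -1.94 to -0.51), which was -6.03 without TKOL replicate 1 and -0.17 without TKOL replicate 2.

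Of 22380 protein-coding genes, 225 (1.01%) had a peak in the promoter in both WT lists and neither TKOL list, 86 (0.384%) in both TKOL lists and neither WT list, and 31 (0.139%) in all 4. The genes named here are the first 10 of each class of loci by the lowest fold enrichment of a locus within the promoter. A promoter can hold a second peak elsewhere: those of Zcwpw1 and Prdm16 also had one in TKOL replicate 2, that of Vgll4 in WT replicate 2 and that of Camta1 in both WT lists. Of WT-only loci within promoters, the highest were at Zcwpw1, a reader of histone methylation in meiosis (4.01 and 3.75 in WT replicates 1 and 2), Nipal3 (4.24 and 3.74) and Catsper3, a subunit of the sperm calcium channel (4.13 and 3.69). They were followed by Prdm16, a transcription factor of brown fat (3.65 and 3.45), Il22, a cytokine (3.44 and 3.53), Adck3, a kinase of coenzyme Q synthesis (3.44 and 4.49), Map3k1, a kinase of the MAP kinase cascade (3.36 and 3.77), Extl1 (4.24 and 3.30), the integrin Itgb3 (3.29 and 3.29) and Ank (3.28 and 3.76). At Map3k1 the locus had 7.00 CpGs per 100 bp, and at Itgb3 it had 0.33. None of these 10 loci overlapped a Uhrf1 peak of DKO0, against 8.38% of all WT-only loci. At Zcwpw1, Nipal3 and Extl1 the loci lay in H3K9me3 peaks of WT (3 of 10, against 22.2% of all WT-only loci).

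TKOL-only loci within promoters were led by those at Camta1, a calmodulin-binding transcription factor (5.62 and 7.06 in TKOL replicates 1 and 2), L1cam, an adhesion protein of neurons (5.08 and 5.38), and Ssr2, a subunit of the complex at the protein channel of the endoplasmic reticulum (5.01 and 5.43). Next came Vgll4, a cofactor of TEAD factors (5.41 and 4.75), Adam5 (4.70 and 4.80), the nuclear receptor Nr6a1 (4.12 and 4.50), Mlkl, the effector of necroptosis (4.05 and 4.28), Tm7sf3 (3.91 and 5.49), Rergl (3.91 and 4.75) and Yme1l1, a protease of mitochondria (4.14 and 3.87). All 10 loci had under 2 CpGs per 100 bp, and 96.0% of all TKOL-only loci had at most 1.67. Of these 10, 7 overlapped a peak in at least 1 DKO0 list, against 57.6% of all TKOL-only loci. Chromosome 6 held 3 of the 10 and chromosome 8 held 2, against 16.3% and 11.6% of the class. Over all loci of a class, the median fold enrichment was 3.21 and 3.02 in the WT lists for WT-only loci, and 3.51 and 3.57 in the TKOL lists for TKOL-only loci. Since each value is relative to the background of its own list, levels are not compared between lists.

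Loci of all 4 lists within promoters were led by those at Hes3, a repressor of the Hes family (7.07, 7.80, 7.36 and 10.5 in WT replicates 1 and 2 and TKOL replicates 1 and 2), and at Gm16532 (6.33, 5.86, 10.8 and 15.1), where the locus crossed the gene start and had 5.33 CpGs per 100 bp. Qrsl1, which takes part in charging mitochondrial glutamine tRNA, had 4.27, 4.56, 4.79 and 4.45. The bitter taste receptor gene Tas2r134 had 5.34, 4.18, 6.17 and 7.14. The values of Trim24, a transcriptional cofactor, were lower at 3.46, 3.09, 3.16 and 3.66. The other 5 were 4930423O20Rik, 4930425F17Rik, Mrgpra2b, Phf21a and Rtbdn. At least 50% of the words were repeated in 5 of the 10 loci, and 7 lay in H3K9me3 peaks of TKOL. Over all loci in all 4 lists these shares were 78.3% and 78.4%.

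Most gene lists held few bound promoters. Over all 22380 genes, 1.01% were WT-only, 0.384% TKOL-only and 0.139% in all 4 lists. The small class counts below are not read as a trait of a list. Tet3, which oxidises methylcytosine, was the 1 WT-only promoter among 20 genes of DNA methylation (2.93 and 2.75), Mcm10, a replication factor, the 1 among 30 genes of DNA replication (3.05 and 2.62), and Dpep3 the 1 among 30 germline genes that DNA methylation silences (3.30 and 2.93). Zfp42, which encodes the pluripotency marker Rex1, was TKOL-only (6.95 and 3.25) and was in both the pluripotency list (19 genes found) and the germline list. Over all 22380 genes, 2.29% and 4.90% had a promoter peak in WT replicates 1 and 2, and 1.36% and 4.20% in TKOL replicates 1 and 2. Of the 30 germline genes, 3 (10%) had a peak in WT replicate 1 and 6 (20%) in WT replicate 2. In TKOL replicates 1 and 2 it was 1 (3.33%) and 2 (6.67%). Among them were Rhox2a, a homeobox gene (3.48 in WT replicate 1 alone), and Dazl, which encodes an RNA-binding protein of germ cells (3.46 in WT replicate 2 alone). Stra8 had peaks in both WT lists (3.12 and 3.06) and in TKOL replicate 2 (3.89). No promoter of 18 genes of H3K9 methylation, 24 imprinted genes, 13 two-cell stage genes, 30 ribosomal protein genes, 29 developmental regulators or 8 markers of feeder fibroblasts was WT-only, TKOL-only or in all 4 lists. TKOL replicate 2 alone had peaks at 7 of 29 developmental regulators (24.1%), among them Pax2 (4.50), Lhx2 (4.09) and Foxa2 (3.799), and at the pluripotency genes Klf5 (3.70), Sall4 (3.67) and Dppa5a, where 3.24% of all genes had a peak in that list alone. Of 367 genes named Zfp, 2 were WT-only (Zfp407 and Zfp462) and 3 TKOL-only (Zfp42, Zfp600 and Zfp763), and of 327 named Vmn, 1 was TKOL-only (Vmn1r175).

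The first 3 loci of each class by their lowest fold enrichment, wherever they lay, are too few to describe a class. Among WT-only loci, the first was chr4:133473872-133474333, 30159 bp from Rps6ka1 (7.01 and 6.58 in WT), followed by the 2650 bp of chr12:36831482-36834131 across an exon of Bzw2 (5.78 and 5.92) and the 2883 bp of chr10:75773089-75775971 across an exon of Dip2a (7.61 and 4.99). These 3 had 3.33, 5.33 and 3.00 CpGs per 100 bp. The first 3 TKOL-only loci were chr9:117144209-117144384 in an intron of Rbms3 (7.97 and 7.49 in TKOL), chr13:89890055-89890267 at 7937 bp from Vcan (9.03 and 6.62) and chr6:67241709-67241940 at a UTR of Il12rb2 (6.14 and 5.65), with 0.33, 0 and 0.67 CpGs per 100 bp. The 3 highest in all 4 lists were chr14:51940046-51940394, 41036 bp from Gm7247 (16.7, 16.9, 12.3 and 11.1 in WT replicates 1 and 2 and TKOL replicates 1 and 2), chr8:112408248-112408773 in an intron of Phlpp2 (9.73, 10.5, 16.1 and 17.0) and chr4:139814804-139815348, 12104 bp from Igsf21 (8.03, 7.64, 12.3 and 26.8). Their CpG densities were 3.33, 0 and 2.00 per 100 bp.

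Repeated sequence was measured as the percent of 31-bp words in the 300 bp around a peak that have at least 10 copies in mm9. At least 50% of words were repeated around 78.3% of loci in all 4 lists (76.2% to 80.2%), 47.0% of WT-only loci (46.0% to 48.0%) and 21.4% of TKOL-only loci (19.9% to 23.0%), against 9.67% of tiles. By list, the mean percent was 36.7% and 32.8% in WT and 49.5% and 36.0% in TKOL. The lines overlapped (p = 0.667, exact permutation test), and the difference of -8.04 points became 8.92 at an equal number of peaks and 24.3 at a -log10 q-value threshold of 3. Reads from near-identical copies cannot be assigned to 1 copy with certainty, which holds for every value in repeated sequence.

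IAP elements separated the lines. Sites were found in mm9 by matching the study's 2 hairpin amplicons of IAP elements, IAPEz with 522 sites and IAP LTR with 2383 sites, and a site was counted when a Uhrf1 peak lay within 500 bp of its centre. This measure was added after the data had been seen. The sites are those of the mm9 reference. The paper reports regions of that reference that long reads found deleted in TKOL and DKO0, and such regions were not excluded here. A site or WT-only locus without a TKOL peak may therefore be absent from the TKOL genome, which was not tested. IAP LTR sites had a peak in 79.4% of cases in WT replicate 1 and 89.2% in WT replicate 2, against 34.5% and 24.0% in TKOL. At IAPEz the shares were 54.8% and 93.1% in WT, with a wide gap between replicates, and 17.0% and 16.3% in TKOL. The differences were 55.0 and 57.3 points (p = 0.33 each, exact permutation test), and 39.7 and 40.9 points at an equal number of peaks per list. At a -log10 q-value threshold of 3 they were 30.2 and 26.8 points. Of the IAP LTR sites, 839 (35.2%) were WT-only, 351 (14.7%) had a peak in all 4 lists and 1 was TKOL-only. DKO0 stood with TKOL, at 26.6% and 18.4% of IAP LTR sites. An IAP site lay within 500 bp of 10.7% of WT-only loci, 25.5% of loci in all 4 lists and 0.0364% (1) of TKOL-only loci, against 0.164% of tiles.

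H3K9me3 at the same sites did not follow Uhrf1. Around IAP LTR sites 29.6% and 27.4% had an H3K9me3 peak in WT and 64.2% and 35.2% in TKOL, and at IAPEz sites the shares were 92.9% and 93.1% in WT and 97.7% and 79.1% in TKOL. Trim28 peaks were at 43.3% and 29.4% of IAP LTR sites in WT and at 63.6% and 49.6% in TKOL. Both marks were therefore found at a larger share of IAP LTR sites in TKOL than in WT, where Uhrf1 was found at a smaller one, while H3K9me3 at IAPEz overlapped between the lines. The mark lists differed in size, with 29440 and 25953 H3K9me3 peaks in WT and 55126 and 32702 in TKOL. For Trim28 the numbers were 25716 and 17501 in WT and 31921 and 16960 in TKOL. How far list size sets the shares of the marks at IAP sites was not tested. Their positions differed too. Uhrf1 in WT was highest at the site itself, with 39.7% and 54.5% of sites inside a peak, against 4.07% and 2.14% in TKOL. Uhrf1 in TKOL was highest at 250 bp before the site, with 13.6% and 9.44%, where WT had 38.8% and 44.9%. H3K9me3 in WT covered 5.37% and 5.54% at the site itself and 2.27% and 1.93% at 250 bp before it. At 1000 bp before the site, in the direction of the amplicon, it covered 30.3% and 28.5%.

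**Figure D4:**
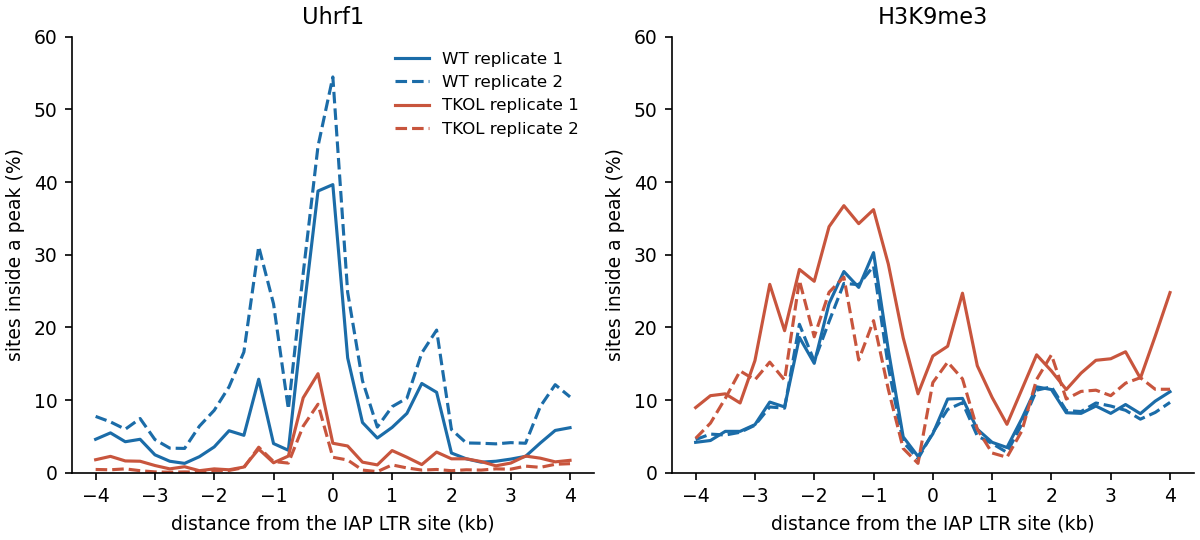
Percent of 2383 IAP LTR sites inside a Uhrf1 peak (left) or an H3K9me3 peak (right) by distance from the site (kb, in the direction of the amplicon), for single replicates of WT and TKOL. At distance 0, Uhrf1 stands at 39.7% and 54.5% in WT and at 4.07% and 2.14% in TKOL, whose highest values are 13.6% and 9.44% at 250 bp before the site, whereas H3K9me3 is highest to the left of the site in all 4 lists.

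Over all peaks, 16.4% and 15.8% of Uhrf1 peaks in WT and 32.4% and 21.3% in TKOL overlapped an H3K9me3 peak of the same line (p = 0.33, exact permutation test). H3K9me3 peaks covered more of the genome in TKOL, 0.898% against 0.481% in WT. Counted in bases and divided by these shares, Uhrf1 peaks were enriched 26.8 and 28.7 times in WT and 33.7 and 22.4 times in TKOL, with overlapping lines. The difference of -10.8 points became 0.18 at an equal number of Uhrf1 peaks and 4.05 at a -log10 q-value threshold of 3. It was -1.42 when the H3K9me3 peak had to be in both lists of a line, and -6.43 at equal numbers of H3K9me3 peaks. What sets its direction was not tested. For Trim28 the shares were 12.2% and 10.5% in WT and 28.5% and 21.2% in TKOL, and the enrichment in bases was 27.5 and 24.5 times in WT and 62.6 and 50.7 times in TKOL. That difference of -13.5 points was 1.29 at a -log10 q-value threshold of 3.

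Loci in all 4 lists carried both marks most often. H3K9me3 peaks of WT overlapped 62.2% (59.8% to 64.5%) of them and those of TKOL 78.4% (76.3% to 80.3%), and for Trim28 the shares were 61.2% and 80.6%. Of these loci 60.3% had H3K9me3 in both lines and 19.7% in neither. WT-only loci had H3K9me3 peaks of WT at 22.2% (21.4% to 23.0%), and TKOL-only loci had those of TKOL at 20.6% (19.1% to 22.1%), a difference of 1.64 points (95% Newcombe interval -0.11 to 3.34). It was -11.0 and -12.3 without WT replicates 1 and 2, and 15.6 and 1.10 without TKOL replicates 1 and 2. Leaving out either WT list thus reversed it, in a setting where WT-only loci needed a peak in a single WT list. Tiles of 300 bp touched such peaks in 0.935% of cases in WT and 1.65% in TKOL. The classes differed in length, with medians of 421 bp (WT-only), 230 bp (TKOL-only) and 541 bp (all 4 lists). A longer locus can touch a peak, a gene or a promoter more easily. With at least 50% of a locus inside the mark, the difference between WT-only and TKOL-only loci was -5.84 points. At WT-only loci, H3K9me3 was found in TKOL more often than in WT: 33.1% of them had an H3K9me3 peak of TKOL, including 20.0% with a peak in both lines, 13.1% in TKOL alone and 2.15% in WT alone. The largest share, 64.7%, had one in neither line.

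The overlap of WT-only loci with H3K9me3 lay mostly in repeated sequence. Of the WT-only loci with at least 50% repeated words, 44.6% had an H3K9me3 peak of WT, and of the others 2.33%. Tiles gave 7.52% and 0.157%. TKOL-only loci had H3K9me3 peaks of TKOL at 52.2% in repeated and 11.9% in other sequence, with tiles at 12.6% and 0.439%. The 348 loci of all 4 lists outside repeated sequence kept a high share, 61.2% with H3K9me3 of WT and 66.4% with that of TKOL, at a mean of 1.09 CpGs per 100 bp. The 5106 WT-only loci outside repeated sequence had a mean of 2.46 CpGs per 100 bp.

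A set of 8 short motifs was searched on both strands of the 300-bp windows, over all loci of a class and over tiles. GCATGCG (the NRF1 core) was in 2.78% of WT-only windows, 0.692% of TKOL-only windows and 0.799% of tiles, and in 4.09% of windows at all gene starts. CACGTG (the E-box) was in 4.68%, 1.93% and 2.89%, and in 7.29% at gene starts. CGCGCG was in 6.71%, 0.474% and 0.423%, and in 16.2% at gene starts. TGACGT (the CRE core) was in 10.6%, 1.24% and 2.26%, and in 8.21% at gene starts. GGGCGG (the GC box) was in 7.14%, 1.31% and 2.81%, and in 45.7% at gene starts, and CCGGAAG (an ETS motif) was in 1.19%, 0.620% and 0.867%, and in 11.3% at gene starts. All 6 of these motifs hold a CpG and were more frequent in WT-only than in TKOL-only windows. Of the motifs without a CpG, CCAAT was in 39.97% of WT-only windows, 32.3% of TKOL-only windows and 40.5% of tiles, and TATAAA in 16.3%, 21.0% and 27.5%. Among WT-only loci outside repeated sequence, GCATGCG was in 4.97% and CACGTG in 8.01%, while TGACGT was in 6.03% and GGGCGG in 4.48%. None of these motifs contains another. Loci in all 4 lists had a mean of 3.21 CpGs per 100 bp, against 3.08 in WT-only loci. Their windows held GCATGCG in 0.250%, CACGTG in 1.25%, CGCGCG in 1.62% and CCGGAAG in 0.187% of cases. TGACGT was in 4.99% and GGGCGG in 4.24% of them. WT-only windows hold more CpGs than TKOL-only windows, and the part of that in the shares of motifs with a CpG was not tested.

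TKOL-only loci were not spread evenly over the chromosomes. Chromosome 6 held 16.3% of them (447 loci), chromosome 8 held 11.6% (318), chromosome 14 held 8.13% (223) and chromosome X held 8.93% (245), against 5.72%, 4.88%, 4.75% and 6.33% of the genome. WT-only loci stood at 5.13%, 6.60%, 4.53% and 2.18% on these chromosomes. Chromosome Y, with 0.106% of the genome, held 1.93% of TKOL-only loci (53) and 2.68% of loci in all 4 lists (43). Chromosome X held 9.11% of loci in all 4 lists. On chromosome 6 the lists held 5.26% and 5.36% of their peaks in WT, 10.2% and 11.5% in TKOL and 10.5% and 11.9% in DKO0. Of bins of 5 Mb, chrX:120000001-125000000 held the most TKOL-only loci (172, with 15 WT-only), followed by chr14:5000001-10000000 (83 and 23). The copy number of these chromosomes in the cells was not tested. Without chromosomes 6, 8, 14, X and Y there were 7847 WT-only, 1458 TKOL-only and 1139 shared loci, with 3.08, 0.55 and 3.55 CpGs per 100 bp.

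**Figure D5:**
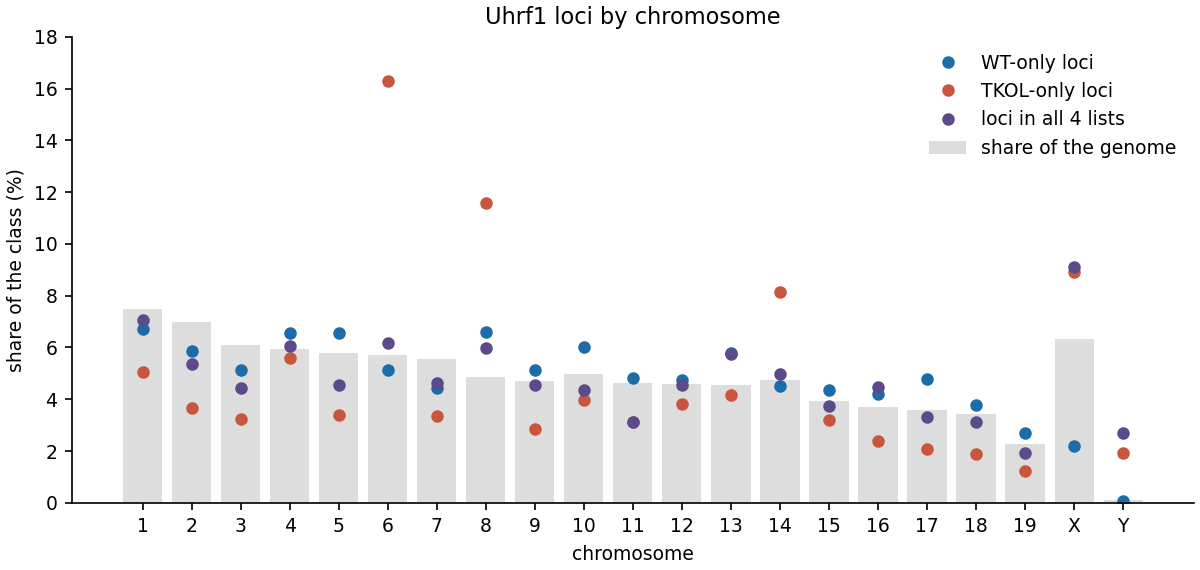
Share of each class of Uhrf1 loci on each chromosome (%, points), beside the share of the known bases of mm9 on it (bars). TKOL-only loci exceed the genome on chromosomes 6 (16.3% against 5.72%), 8 (11.6% against 4.88%) and 14 (8.13% against 4.75%), and WT-only loci lie below it on chromosome X (2.18% against 6.33%).

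The Uhrf1 lists of DKO0 placed the classes apart as well. A peak of DKO0 replicates 1 and 2 overlapped 31.1% and 47.6% of TKOL-only loci, 5.83% and 3.82% of WT-only loci, and 76.4% and 76.3% of loci in all 4 lists, against 0.226% and 0.229% of tiles. DKO0 descends from TKOL, with the same strain and knockouts. Of the WT-only loci outside repeated sequence, 2.27% had a peak in either DKO0 list, and of those in repeated sequence 15.3%. For TKOL-only loci these shares were 55.8% and 64.3%.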

How the data were processed

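The members and lists used here were chosen with earlier results of these data known. Peak lists of Uhrf1 ChIPmentation libraries, and of H3K9me3 and Trim28 ChIP-seq libraries made from sonicated chromatin, were analysed as deposited. Per the submitters' processing notes, reads were processed with BWA, GATK and MACS2 on mm9. The authors' lists are broad peaks, with a fold enrichment (a ratio to the local background) and the -log10 p-value and -log10 q-value of each peak; the lowest -log10 q-value was about 1.00 in every list. Read counts are not in the lists, so intervals cover the number of peaks or loci only. The paper gives a target depth per library, and the depth reached is unknown. The authors' pooled TKOL list was used for 1 alternative, and the other pooled lists were not used.

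Samples were grouped by their labels. Peaks were merged into loci at an overlap of at least 1 bp, and a locus was assigned to a list when 1 bp of it lay in a peak of that list. Protein-coding genes and starts came from the GENCODE vM1 annotation of mm9, with the order promoter, genic, intergenic. CpG content used 300-bp windows of the mm9 sequence, and genome values used every 10th tile of 300 bp without unknown bases (every 100th tile for repeated words and motifs). H3K9me3 and Trim28 peaks of a line were those of either replicate. The planned repeat-masked percent could not be computed, since the reference is not soft-masked, and the share of 31-bp words with at least 10 copies took its place, also in the choice of printed sequences. IAP sites were stretches with at least 50% of the 15-bp words of an amplicon. Lists were compared by exact two-sided permutation tests of 2 against 2, adjusted over 9 tests by Benjamini-Hochberg. Locus classes were compared without a test, with Wilson and Newcombe 95% intervals. Named genes were the first 10 protein-coding genes of a class, ranked by the lowest fold enrichment over the lists that define it, whose promoter holds the locus; named loci were the first 3. Both leave out chromosome 18. Up to 4 genes of a list were given as examples, those with the highest lowest fold enrichment, beside each gene counted in a class. Zfp and Vmn genes were taken from the annotation by name. Alternatives were lists limited to the same number of peaks, a -log10 q-value threshold of 3, autosomes only, each list left out, a replicate block, other overlap rules (a gap of 500 bp, 50% coverage, peak midpoints), promoters of 2.5 kb, all annotated genes, other choices of mark peaks, and, after the data were seen, chromosomes 6, 8, 14, X and Y left out, peaks split by repeated words, and promoter peaks left out. The code was tested on simulated lists, and overlap counts were checked with bedtools 2.31.1. Python 3.11.15, numpy 2.4.6, numba 0.67.0 and matplotlib 3.10.9 were used. The printed sequence of 1 locus is not reported here.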

Additional observations from a re-analysis of the deposited data

How the results depend on the processing

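The CpG difference between the lines (1.11 to 1.46 with 1 list left out) and both IAP differences kept their direction in every alternative run. Over all results, 11 of 158 alternatives reversed a direction. In 24 others a count moved by over 1.5 times or a class difference left its interval. The remaining 123 kept the direction, but differences between lists could still shrink, as IAPEz did to 26.8 points at a -log10 q-value threshold of 3. These 123 include the replicate block of each of the 9 tested differences, which could not change a direction. For each change the cause was not tested. At an equal number of peaks, WT-only loci fell to 3152, and WT minus TKOL differences became 0.18 points for H3K9me3 overlap and 8.92 for repeated words. A -log10 q-value threshold of 3 left 1018 WT-only, 711 TKOL-only and 504 shared loci, and gave -1.08 points for genic, 2.51 for intergenic, 4.05 for H3K9me3, 1.29 for Trim28 and 24.3 for repeated words. With 50% of a locus covered, 479 loci were shared, and without chromosomes 6, 8, 14, X and Y, 1458 were TKOL-only. With 1 list left out, WT-only loci ranged from 10409 to 43777, TKOL-only from 2942 to 13075 and shared loci from 1764 to 2726, and the promoter difference from -3.87 to 0.46 points.

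Between WT-only and TKOL-only loci, the promoter difference was -2.0 at the q-value threshold, -2.44 within 2.5 kb, and -6.03 to -0.17 with 1 list left out. The H3K9me3 difference was 5.67 with 50% covered, 11.5 at equal numbers, 13.2 at the q-value threshold, 6.87 on autosomes, 4.17 without the 5 chromosomes, 6.60 with the mark in both lists, 5.35 at equal numbers of mark peaks, -5.84 with 50% inside the mark and -12.3 to 15.6 with 1 list left out.

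With the replicate number as a block only the p-value can change, and for the CpG difference of 1.29 it was 0.5 (exact permutation test). The labels do not say whether same-numbered lists shared more than a number. Their replicate differences correlated at 0.0236 over 86311 loci, but 67905 of these were in 1 list and could not show a shared deviation. Over the 6035 loci with a peak in both lines the correlation was 0.0789. These values cannot decide whether the lists are paired. The repeat-masked percent was not run. Unknown read depth limits every comparison of list sizes.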
